A study of Saccharomyces cerevisiae S288C with 18 samples.

Results

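Stable unannotated transcripts (SUTs) are non-coding RNAs of budding yeast that RNA polymerase II makes from intergenic and antisense start sites, and that can be seen in wild-type cells without inactivation of the nuclear exosome. They are named in contrast to cryptic unstable transcripts (CUTs), which appear when the nuclear exosome is impaired, and Xrn1-sensitive unstable transcripts (XUTs), which appear when the cytoplasmic exonuclease Xrn1 is missing. Non-coding RNAs that reach the cytoplasm are capped and polyadenylated like mRNAs, so they can meet ribosomes, the poly(A) binding protein Pab1 and the helicase Upf1, which carries out nonsense-mediated mRNA decay (NMD). SUTs were taken here as the rows of the count tables whose identifier starts with SUT, which gave 847 of 23521 rows.

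The 4 purifications were Upf1-TAP, Pab1-TAP, Rpl16a-TAP (a protein of the large ribosomal subunit) and Lsm1-TAP (a subunit of the Lsm ring that activates decapping), each from a strain in which that protein carries a C-terminal TAP tag (calmodulin binding peptide, TEV site and Protein A). The control was a mock purification from BY4741, the untagged haploid MATa strain, and input was total RNA from an aliquot of extract taken ahead of the purification step. The strain or strains that gave input are not stated in the sources used here. All cells were in exponential growth in rich glucose medium (YPD) at 30 °C, and each group had 3 libraries from replicated experiments. No source used here says that they came from separate cultures, so p-values measure the spread between these libraries, which may be technical. A tagged strain is 1 strain of a systematic collection, and RNA held on the beads can be bound directly or through partner proteins.

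The RefSeq annotation of genome release R64 places 9 SUTs by name. SUT125 lies at chrVII:650855-651159 on the + strand, 305 bases in the intergenic interval between PIL1 and PDC6. The annotation describes it as a non-coding RNA that acts in trans on transcription factors. SUT053, which has a note on steroid biosynthesis, lies at chrIV:506334-507774 on the + strand, 372 bases before MRH1, and overlaps SUT468 of the - strand. SUT418 lies at chrXVI:588998-589830 on the + strand, 452 bases from YPR015C. These 3 are the annotated SUTs with enough reads for a test, and their first 300 bases are shown to give the transcripts behind the values, except for SUT053, where the 300 bases around its longest run of A are shown (chrIV:506788-507087). Runs of 8 or more A are in capitals.

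SUT125: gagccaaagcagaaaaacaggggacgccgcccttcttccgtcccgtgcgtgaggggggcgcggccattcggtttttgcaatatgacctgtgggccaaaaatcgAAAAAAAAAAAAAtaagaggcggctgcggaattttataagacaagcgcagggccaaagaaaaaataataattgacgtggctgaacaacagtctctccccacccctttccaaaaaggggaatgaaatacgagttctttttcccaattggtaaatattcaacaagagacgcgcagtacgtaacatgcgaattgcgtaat
SUT053: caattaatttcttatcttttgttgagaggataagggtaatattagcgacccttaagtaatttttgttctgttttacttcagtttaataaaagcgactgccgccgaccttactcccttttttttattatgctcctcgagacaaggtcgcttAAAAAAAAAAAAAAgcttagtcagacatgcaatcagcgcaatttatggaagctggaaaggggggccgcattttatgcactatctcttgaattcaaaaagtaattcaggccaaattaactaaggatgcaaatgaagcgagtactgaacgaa
SUT418: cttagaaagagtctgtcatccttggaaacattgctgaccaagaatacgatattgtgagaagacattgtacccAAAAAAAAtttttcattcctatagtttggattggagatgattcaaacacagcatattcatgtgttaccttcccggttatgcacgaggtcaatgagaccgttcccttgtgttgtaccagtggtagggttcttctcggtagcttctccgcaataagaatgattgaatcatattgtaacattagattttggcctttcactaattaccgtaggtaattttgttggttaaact

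The longest run of A was 13 letters in SUT125, 14 in SUT053 and 8 in SUT418. Of genome windows of 305 bases, read on both strands, 2.76% held at least 10 A in a row and 0.934% held at least 13. Windows of 1441 bases, the length of SUT053, held 14 A in a row in 3.02% of cases. A run of this kind is a description of the letters, and the boundaries used by the authors for counting were not among the sources used here.

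Total read counts per library ranged between 2790148 and 16381719. Reads of ribosomal RNA and of reading frames within the ribosomal DNA took 67.7% of Rpl16a-TAP replicate 3 and 41.3% of input replicate 3, at most 13.4% of every other library, and were left out of the levels below. Those 2 libraries hold 197 and 497 SUT reads, against 2412 to 55182 in the other 16. The 5 MATa-specific genes examined were read in every library, while MFALPHA1 and MFALPHA2, the pheromone genes of the other mating type, had medians of 0.244 and 0.199 CPM. STE3, a MATalpha-specific receptor gene, had a median of 2.57 CPM and up to 11 CPM. URA3, LEU2 and MET17, which BY4741 lacks, had 2, 0 and 0 reads over all libraries.

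Most SUT rows were empty. A read was counted in 273 rows and 574 rows had 0 reads in all 18 libraries, among them SUT141. The empty rows were not spread evenly over the numbering. Of the rows numbered up to 430, 271 had reads and 159 had none, while the 417 rows numbered 431 to 847 held 4 reads in all, in SUT718 and SUT741. Both SUTs that RefSeq places on the - strand, SUT468 and SUT532, are in this upper range and had 0 reads, and the 7 on the + strand are numbered below it. Of the XUT rows, the 812 that are named as reverse strand had 0 reads, while reading frames had reads on both strands (113 of 3234 Watson and 37 of 3176 Crick frames were at 0). The paper displays the signal of Pab1-TAP, Rpl16a-TAP and Upf1-TAP over the region of SUT141 as an example, although the SUT141 row had 0 reads. Whether the transcripts of the empty rows were not captured or their rows received no reads in counting was not tested. The statements below concern the rows with reads. Reads over all SUT rows and libraries came to 207177, of which 36.7% lay in the 10 rows with the most reads. A test was possible for 167 SUTs (19.7% of the rows), those that had 10 or more reads in 3 or more libraries, and 106 more had reads without reaching this minimum. The 3 libraries of Upf1-TAP alone reached it for 134 SUTs, those of Pab1-TAP for 103, Lsm1-TAP for 79, the control for 41, input for 14 and Rpl16a-TAP for 1, so that the tested SUTs are weighted towards those well read with Upf1 and Pab1.

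SUT reads took a larger share of the RNA with Upf1-TAP than in any other group. Taken over all SUT rows and expressed in reads per 1000000 counted reads outside ribosomal RNA, the level was 4570, 4199 and 2919 in replicates 1, 2 and 3 of Upf1-TAP (mean 3896 ± 866, SD, n = 3), and 1529, 1072 and 1474 in those of Pab1-TAP (1359 ± 249). The Lsm1-TAP libraries had 1999, 1072 and 861 (1310 ± 606) and the Rpl16a-TAP libraries 353, 304 and 215 (291 ± 69.8). The mock purification had 865, 510 and 505 (627 ± 206) and input had 393, 347 and 304 (348 ± 44.6). Every Upf1-TAP library lay above all 15 others, Pab1-TAP lay above the control and input without overlap, and Rpl16a-TAP lay below the control and overlapped input. Lsm1-TAP lay above input, and its replicate 3 stood at 861 against 865 in control replicate 1. Relative to input the mean was 11.2 times as high with Upf1, 3.91 times with Pab1, 3.77 times with Lsm1, 0.836 times with Rpl16a and 1.80 times in the control. Relative to the mock purification it was 6.22 times as high with Upf1, 2.17 times with Pab1, 2.09 times with Lsm1 and 0.464 times with Rpl16a. These shares are of sequenced reads, and more of a SUT cannot be told apart from less of the other RNAs in them.

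**Figure D1:**
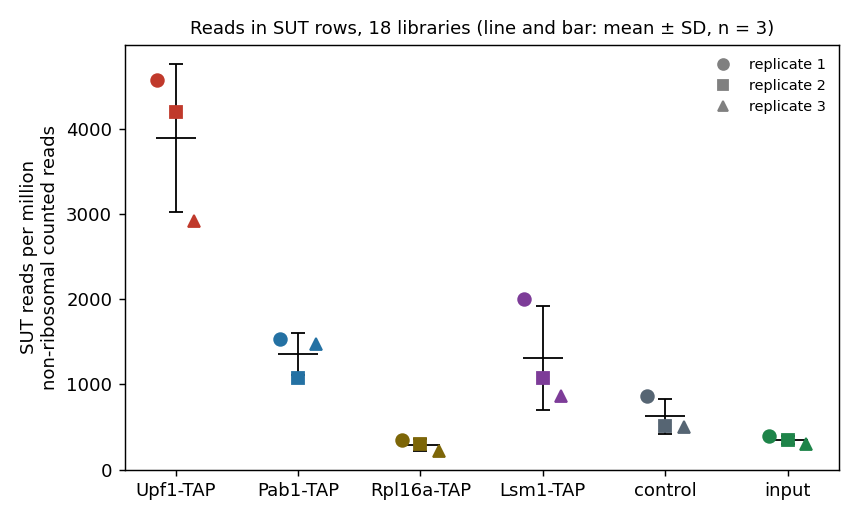
Summed level of all 847 SUT rows in reads per 1000000 counted reads outside ribosomal RNA (vertical axis) in 18 libraries of 6 groups. Symbols are replicates 1 to 3, and the line and bar are the mean and SD of 3 libraries. The Upf1-TAP libraries lie between 2919 and 4570, above every other library.

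For single SUTs, levels are given in CPM (counts per 1000000 counted reads of the kept features, ribosomal ones included) after TMM scaling. TMM scaling sets the level shared by most features as equal between libraries. CPM levels are not per length, so they compare a SUT between groups and not 1 SUT with another. Log2 fold changes are from edgeR with their SE (3 libraries per group, 18 in the fit), and a SUT is said to be higher or lower where its adjusted p was below 0.05. This scaling matters for the level of 0. Scaling by total count moved the median of all features by 2.06 on the log2 scale where Upf1-TAP was set over input, 1.69 with Pab1, 1.57 with Lsm1, 0.63 with Rpl16a and 1.20 for the control over input, and by 0.87, 0.48, 0.38 and −0.56 where the Upf1, Pab1, Lsm1 and Rpl16a purifications were set over the control. For Upf1-TAP over Pab1-TAP and over Rpl16a-TAP the shifts were 0.38 and 1.43, and for Pab1-TAP over Rpl16a-TAP 1.04. The SUT median moved with it, so that its distance from the median of all features changed by at most 0.18 in the 12 comparisons. The share of higher calls among calls of all features went to between 77.0% and 99.5% with that scaling in the 10 comparisons other than Rpl16a-TAP and Lsm1-TAP over the control, against 50.5% to 58.7% with TMM.

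Over the mock purification, SUTs were higher with Upf1-TAP. Of the 167 SUTs, 88 were higher and 0 were lower, where 19.8% of all 12582 features tested were higher and 13.9% lower. The 167 are weighted towards SUTs well read with Upf1-TAP, where 134 reached the minimum for a test, against 41 in the control, 14 in input and 1 in Rpl16a-TAP. By unadjusted p below 0.05 in edgeR 1 SUT was lower, and by DESeq2 none. The SUT median was 1.72 (quartiles 1.12 and 2.56), beside 2.15 for XUTs, 1.28 for CUTs, −0.30 for reading frames and 0.07 for all features. By replicate number it was 1.54, 2.25 and 1.55. The count was 56 without control replicate 2 and 56 without control replicate 3. Over input, 61 SUTs were higher and 5 were lower with Upf1-TAP (22.2% and 15.9% of all features), and 144 and 0 with scaling by total count. There the SUT median of 1.33 was close to that of XUTs (1.28), with CUTs at 0.22, reading frames at 0.01 and all features at 0.27. Over Rpl16a-TAP, 103 SUTs were higher and 0 lower (24.1% and 17.5% of all features), and both the unadjusted edgeR p and DESeq2 called 0 lower. The median there was 2.26.

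**Figure D2:**
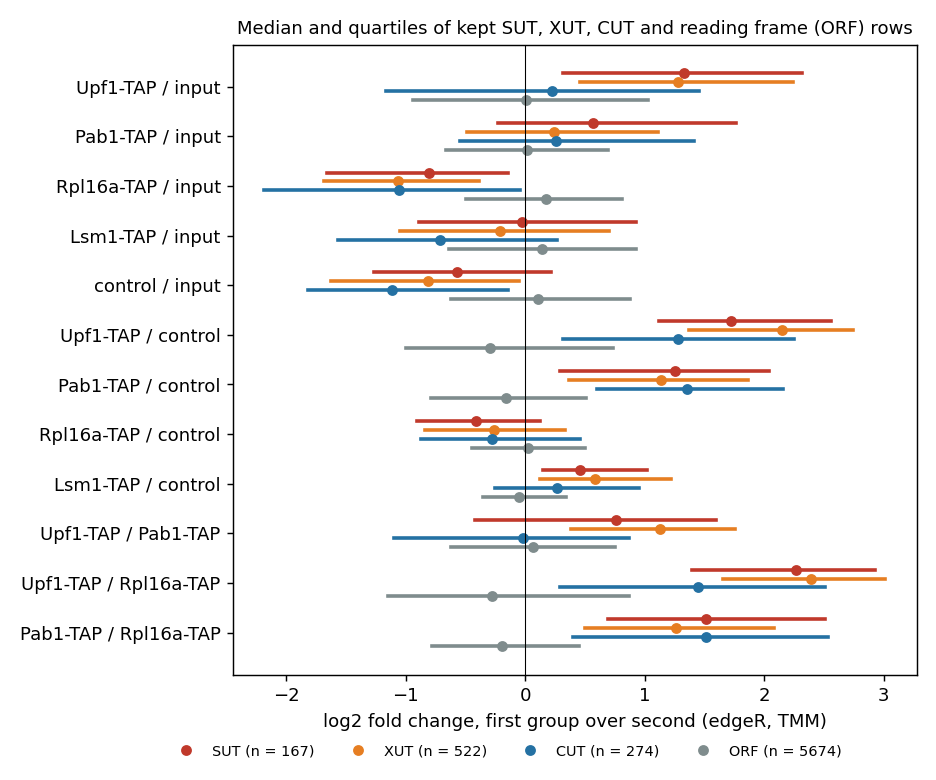
Log2 fold change of the first named group over the second (horizontal axis, edgeR with TMM scaling) for each of 12 comparisons. Points are the median and lines the quartiles over the kept SUT (n = 167), XUT (522), CUT (274) and reading frame (ORF, 5674) rows. The SUT median is 1.72 for Upf1-TAP over the control and −0.41 for Rpl16a-TAP over the control.

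SUT103 was the SUT with the largest share of SUT reads in Upf1-TAP (7.77%) and in Pab1-TAP (4.92%). It had 171, 171 and 119 CPM in Upf1-TAP, against 26.6, 13.3 and 18.6 in the control. The 2 groups did not overlap, and neither did Upf1-TAP and any other group. Its log2 fold change was 2.98 ± 0.40 over the control (adjusted p = 9.68e-05) and 3.71 ± 0.42 over Rpl16a-TAP, where it had 13.8, 14.0 and 4.27 CPM. The Rpl16a-TAP values are 100, 168 and 3 reads. SUT307 behaved alike in Upf1-TAP, with 62.8, 86.2 and 120 CPM, against 6.21, 6.74 and 8.94 in the control. This was a rise by 3.62 ± 0.43 over the control (adjusted p = 4.09e-05), and its rise over input passed the test in all 13 alternatives tried. SUT020 had 49.5, 55.4 and 45.6 CPM in Upf1-TAP, against 13.2, 9.68 and 11.1 in the control (log2 fold change 2.15 ± 0.32, adjusted p = 0.000204). SUT111 and SUT329, which like SUT103 and SUT020 are among the 6 SUTs with the most reads in input, were higher too. SUT111 had 102, 82.3 and 51.1 CPM in Upf1-TAP, against 38.4, 18.1 and 17.7 in the control (1.67 ± 0.49, adjusted p = 0.0145), and SUT329 had 40.8, 43.9 and 68.3 CPM in Upf1-TAP, against 5.61, 6.05 and 5.29 in the control (3.17 ± 0.52, adjusted p = 0.000412). No library overlapped for either.

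SUT208 and SUT084 had the highest log2 fold changes of Upf1-TAP over the control that met the rule for naming. SUT208 had 25.6, 30.2 and 7.15 CPM in Upf1-TAP, against 1.80, 0.518 and 0.548 in the control (4.46 ± 0.67, adjusted p = 0.00021). All 15 other libraries stood at or below 3.33 CPM, the value of Lsm1-TAP replicate 1. SUT084 had 215 reads in the Upf1-TAP libraries together and only 3 in those of the control, a ratio of scaled reads of 19.8 with an exact 95% interval from 6.70 to 97.0 that covers counting error only. SUT078 and SUT177 rested on as few reads of input. SUT078 had 316 reads in Upf1-TAP and 3 in input (ratio 19.2, interval 6.51 to 93.7), and SUT177 had 245 reads in Upf1-TAP and 1 in input (ratio 44.7, interval 7.95 to 1772). SUT379 had 112, 66.4 and 18.3 CPM in Upf1-TAP, against 21.0, 3.63 and 4.02 in the control, so that 1 library of each overlapped, and rose by 2.78 ± 0.83 (adjusted p = 0.0162). SUT356 was at 2.03, 2.93 and 8.56 CPM in Upf1-TAP, against 0.277, 0.334 and 0 in Rpl16a-TAP (log2 fold change 3.87 ± 0.86, adjusted p = 0.00199). Its Rpl16a-TAP values are 2, 4 and 0 reads.

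**Figure D3:**
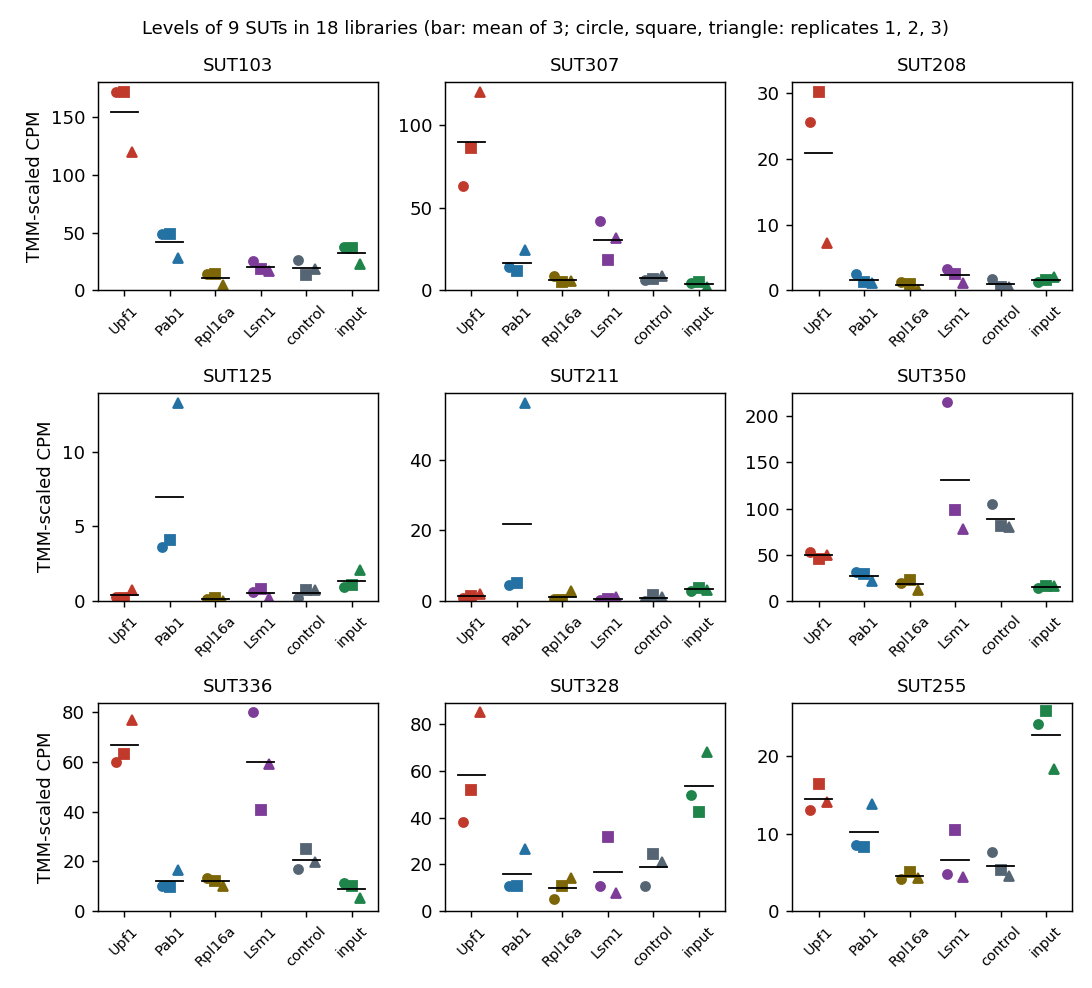
TMM-scaled CPM (vertical axes, each starting at 0) of 9 SUTs in the 18 libraries of 6 groups. Symbols are replicates 1 to 3 and bars are means of 3 libraries. SUT103, SUT307 and SUT208 are highest in Upf1-TAP, SUT125 and SUT211 in Pab1-TAP, and SUT350 in Lsm1-TAP and the control.

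Pab1-TAP also held more SUT reads than the mock purification, for fewer SUTs. Over the control 48 SUTs were higher and 1 was lower (8.24% and 8.08% of all features), with a median of 1.25 for SUTs, 1.14 for XUTs, 1.35 for CUTs and −0.16 for reading frames. The count of 49 was 25 without control replicate 2. Over input 25 were higher and 6 lower (9.89% and 7.89% of all features), with a median of 0.57, beside 0.24 for XUTs and 0.26 for CUTs. With the replicate number as a block these counts were 45 and 9, and with scaling by total count 106 and 0. By replicate number the SUT median over input was 0.43, 0.32 and 2.21. The value 2.21 belongs to the libraries with 13.4% ribosomal reads in Pab1-TAP and 41.3% in input, whose part in it was not tested. Input replicate 3 held 497 SUT reads in all, so this value rests on few reads. The total of 31 calls was 20 without Pab1-TAP replicate 3, 9 without input replicate 1 and 6 without input replicate 2. Over Rpl16a-TAP 57 SUTs were higher and 2 lower with Pab1-TAP (7.89% and 6.34% of all features), with a median of 1.51, and the total of 59 was 37 without Rpl16a-TAP replicate 1, 18 without Rpl16a-TAP replicate 2 and 39 without Pab1-TAP replicate 3.

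SUT125 stood apart with Pab1-TAP. It had 3.61, 4.04 and 13.3 CPM in Pab1-TAP, against 0.200, 0.691 and 0.730 in the control. All 3 Pab1-TAP libraries lay above the 15 others, of which input replicate 3 was the highest with 2.04 CPM. The log2 fold change was 3.60 ± 0.71 over the control (adjusted p = 0.00329) and 2.52 ± 0.71 over input (adjusted p = 0.0208). In Pab1-TAP it had 221 reads over the 3 libraries, against 3 in Rpl16a-TAP, a ratio of scaled reads of 33.6 (interval 11.4 to 164). The other annotated SUTs with a test differed from it. SUT053 had 6.81, 7.67 and 3.85 CPM with Upf1 and 4.68, 7.0 and 4.31 with Pab1, against 3.0, 2.07 and 1.10 in the control. Its log2 fold changes over the control, 1.58 ± 0.65 for Upf1-TAP and 1.39 ± 0.65 for Pab1-TAP, did not pass (adjusted p = 0.0672 and 0.151), while its rise of 2.08 ± 0.72 over input with Upf1-TAP did (adjusted p = 0.0288). SUT418 stayed between 0 and 1.98 CPM in all libraries and rose in 1 comparison, Upf1-TAP over Rpl16a-TAP (1.90 ± 0.63, adjusted p = 0.0218).

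SUT293, SUT381 and SUT211 also had all Pab1-TAP libraries above the 15 others, with replicate 3 the highest of them. SUT293 had 3.04, 4.08 and 15.3 CPM in Pab1-TAP, against 0.801, 0.691 and 1.10 in the control (log2 fold change 3.06 ± 0.70, adjusted p = 0.00749). SUT381 had 5.69, 8.75 and 15.3 CPM in Pab1-TAP, against 0.801, 1.90 and 1.28 in the control (log2 fold change 2.86 ± 0.56, adjusted p = 0.00322). Neither SUT overlapped between these groups. SUT211 had 4.49, 4.94 and 56.2 CPM in Pab1-TAP, against 0, 1.56 and 1.10 in the control, and its log2 fold change of 4.56 ± 1.02 (adjusted p = 0.00673) was 2.37 without Pab1-TAP replicate 3, which no longer passed (adjusted p = 0.0503). DESeq2 gave no adjusted p for SUT211 in this comparison. SUT170 had 95 reads in Pab1-TAP together and 3 in the control (ratio 11.8, interval 3.92 to 58.2). SUT078, with 109 reads in Pab1-TAP and 3 in input, had a ratio of 8.91 (interval 2.97 to 43.9). Its log2 fold change over input was 2.07 without input replicate 2 (adjusted p = 0.118). SUT376 had 4.30, 2.87 and 15.1 CPM in Pab1-TAP, against 0.621, 0.615 and 2.04 in input. Its log2 fold change of 3.13 ± 0.91 (adjusted p = 0.024) did not pass without Pab1-TAP replicate 3 (2.14), input replicate 1 (2.93) or input replicate 2 (2.77).

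Set directly against each other, Upf1-TAP and Pab1-TAP differed in both directions. Of the 167 SUTs, 37 were higher and 10 were lower with Upf1-TAP than with Pab1-TAP (12.9% and 10.5% of all features). With the replicate number as a block the counts were 68 and 15. The SUT median was 0.76 (quartiles −0.42 and 1.59), beside 1.13 for XUTs, −0.02 for CUTs and 0.06 for reading frames, and by replicate number 0.84, 0.95 and 0.43. The count of 47 was 30 without Upf1-TAP replicate 1, and 31 without either Upf1-TAP replicate 2 or Pab1-TAP replicate 2. SUT208 had 25.6, 30.2 and 7.15 CPM with Upf1-TAP, against 2.47, 1.30 and 1.08 with Pab1-TAP (log2 fold change 3.66 ± 0.61, adjusted p = 0.000825). SUT341 had 9.57, 6.25 and 3.77 CPM with Upf1-TAP, against 0.886, 0.404 and 0.359 with Pab1-TAP (3.49 ± 0.66, adjusted p = 0.00167). The groups did not overlap for either. SUT125 gave the opposite order, with 0.242, 0.158 and 0.707 CPM with Upf1-TAP, against 3.61, 4.04 and 13.3 with Pab1-TAP (−4.28 ± 0.67, adjusted p = 0.000638), and the call was kept in the 12 alternatives that gave a value. SUT211 was at −4.04 ± 0.94 and no longer passed without Pab1-TAP replicate 3 (−1.86, adjusted p = 0.0586), and DESeq2 gave no adjusted p for it.

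**Figure D4:**
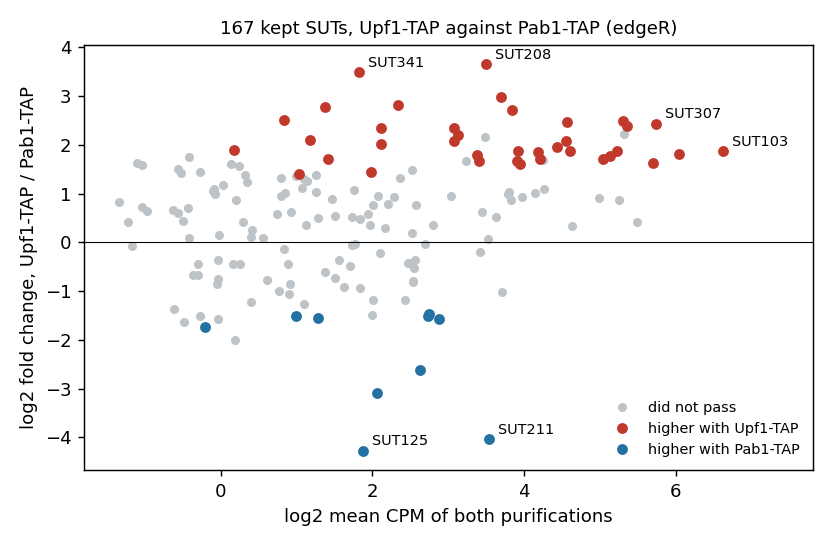
Log2 fold change of Upf1-TAP over Pab1-TAP (vertical axis) against the log2 of the mean CPM of both purifications (horizontal axis) for 167 SUTs. Red points are the 37 SUTs higher with Upf1-TAP, blue points the 10 higher with Pab1-TAP and grey points those that did not pass.

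With Rpl16a-TAP, the ribosome purification, more SUTs were lower than higher relative to input, and few calls were made relative to the mock purification. Over input 2 SUTs were higher and 20 lower (5.61% and 4.00% of all features), with a median of −0.81 for SUTs, −1.07 for XUTs, −1.05 for CUTs and 0.17 for reading frames. By replicate number the SUT median was −0.83, −0.98 and 0.00. In replicate 3 Rpl16a-TAP and input hold 197 and 497 SUT reads, and 3 reads stand for 4.27 and 3.05 CPM. The value 0.00 therefore cannot tell a fall from none. With the replicate number as a block the counts were 2 and 40, and with scaling by total count 2 and 3. The total of 22 was 8 without Rpl16a-TAP replicate 1, 4 without Rpl16a-TAP replicate 2 and 8 without either input replicate 1 or input replicate 2. Over the control 0 SUTs were higher and 1 was lower (0.0556% and 0.246% of all features), where by unadjusted p below 0.05 in edgeR 7 were higher and 14 lower and DESeq2 called 1 higher and 3 lower. The SUT median was −0.41. SUT020 had 5.67, 5.50 and 7.11 CPM in Rpl16a-TAP (41, 66 and 5 reads), below all 15 other libraries. It fell by 1.84 on the log2 scale relative to input (SE 0.34, adjusted p = 0.00413). SUT069 had the opposite order to most SUTs, with 0.949, 1.17 and 1.26 CPM in Pab1-TAP, against 3.04, 3.09 and 4.27 in Rpl16a-TAP. The Rpl16a-TAP values are 22, 37 and 3 reads. The log2 fold change of SUT069 for Pab1-TAP over Rpl16a-TAP was −1.54 ± 0.43 (adjusted p = 0.0221), and it did not pass without replicate 1 or 2 of Pab1-TAP (−1.42 and −1.57) or of Rpl16a-TAP (−1.61 and −1.60), or with scaling by total count (−0.49) or without the filter on low counts (−1.53).

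SUT350 had the most SUT reads in Lsm1-TAP (14.0% of them), in Rpl16a-TAP (5.14%) and in the mock purification (16.5%). It had 216, 98.9 and 77.4 CPM in Lsm1-TAP and 105, 80.7 and 80.5 in the control, against 13.3, 15.7 and 16.3 in input. Both groups lay above input without overlap and overlapped each other, with rises over input of 3.12 ± 0.38 for Lsm1-TAP (adjusted p = 9.74e-05) and 2.56 ± 0.37 for the control (adjusted p = 0.000601). In Pab1-TAP it had 31.0, 28.6 and 20.8 CPM and in Rpl16a-TAP 19.4, 22.4 and 11.4, both below the control, by −1.72 ± 0.35 (adjusted p = 0.00409) and −2.26 ± 0.37 (adjusted p = 0.0156). The Rpl16a-TAP value did not pass without control replicate 1 (−2.12), control replicate 2 (−2.32), Rpl16a-TAP replicate 1 (−2.30) or Rpl16a-TAP replicate 2 (−2.45). With scaling by total count neither passed (−1.22 for Pab1-TAP and −2.81 for Rpl16a-TAP). A SUT was thus higher than in input in a purification with no tagged protein, and values over the control are given beside those over input.

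Over the control, edgeR called 0 of the 167 SUTs with Lsm1-TAP and 0 of all 12582 features, while 22 SUTs were higher and 2 lower at an unadjusted p below 0.05 and DESeq2 called 4 higher. The SUT median was 0.46, beside 0.59 for XUTs and −0.05 for reading frames. SUT307 had 41.7, 18.4 and 31.5 CPM in Lsm1-TAP, against 6.21, 6.74 and 8.94 in the control, and SUT336 had 80.1, 40.8 and 59.4 in Lsm1-TAP, against 17.0, 24.9 and 19.9 in the control. Neither overlapped between these groups. Their log2 fold changes of 2.06 ± 0.41 and 1.54 ± 0.34 did not pass (adjusted p = 0.0711 and 0.0757). Over input 15 SUTs were higher and 15 lower with Lsm1-TAP (13.1% and 9.76% of all features) with a median of −0.03, and 68 and 0 with scaling by total count, where the median was 1.52. The count of 30 was 10 without Lsm1-TAP replicate 1, 18 without input replicate 1 and 12 without input replicate 2. SUT363 had 99 reads in Lsm1-TAP and 3 in input (ratio 11, interval 3.66 to 54.4), and SUT177 had 55 and 1 (ratio 18.4, interval 3.16 to 739). The log2 fold change of SUT177 did not pass without Lsm1-TAP replicate 1 (3.41), input replicate 1 (3.69) or input replicate 2 (7.25). SUT379 had 68.9, 24.2 and 7.15 CPM in Lsm1-TAP, against 4.96, 4.00 and 1.02 in input (3.16 ± 0.90, adjusted p = 0.0174), and did not pass without Lsm1-TAP replicate 1 (2.07), input replicate 2 (3.23) or input replicate 3 (2.91).

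The mock purification itself differed from input. Of the 167 SUTs 2 were higher, SUT350 and SUT336, and 14 were lower (9.21% and 6.96% of all features), with a median of −0.57, beside −0.82 for XUTs, −1.12 for CUTs and 0.11 for reading frames. By replicate number the SUT median was −0.51, −0.97 and 0.31. The value 0.31 uses input replicate 3, which held 497 SUT reads in all, so little can be read from its sign. With scaling by total count 15 were higher and 1 lower, and the median was 0.59. The count of 16 was 6 without control replicate 2, 8 without control replicate 3, 7 without input replicate 1 and 9 without input replicate 2. SUT048 had 0.40, 0.173 and 0.913 CPM in the control, against 7.45, 4.77 and 2.04 in input, and fell by 3.33 on the log2 scale (SE 0.70, adjusted p = 0.00486). It was the 1 SUT whose 3 control libraries lay below all 15 others. SUT336 rose by 1.17 ± 0.35 in the control relative to input, and did not pass without control replicate 2 (1.01), control replicate 3 (1.19), input replicate 1 (1.35), input replicate 2 (1.25) or input replicate 3 (0.96).

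A few SUTs were highest in input or lower than input in several purifications. SUT194 lay between 0.167 and 5.48 CPM in the 15 purified libraries, all below input with 7.14, 5.53 and 12.2 CPM. Relative to input it was at −2.57 ± 0.78 with Upf1 (adjusted p = 0.0143), −2.69 ± 0.80 with Pab1 (0.0271), −3.10 ± 0.81 with Lsm1 (0.011) and −4.26 ± 1.02 with Rpl16a (0.0146). These calls were each lost in at least 1 of the single-library omissions: with Upf1 without its replicate 1 (−2.23) or 2 (−2.24), with Pab1 without its replicate 1 (−2.56) or 2 (−2.44) or any input replicate (−2.76, −2.94 and −2.38), with Rpl16a without its replicate 1 (−4.75) or 2 (−3.49), and with Lsm1 without its replicate 1 (−2.98). SUT255 lay between 4.15 and 16.4 CPM in the purified libraries, again below input with 24.2, 25.8 and 18.3 CPM. It fell in Rpl16a-TAP by 2.33 (SE 0.42, adjusted p = 0.0035), in Lsm1-TAP by 1.81 (SE 0.39, adjusted p = 0.00339), in Pab1-TAP by 1.18 (SE 0.38, adjusted p = 0.0397) and in the control by 1.98 (SE 0.40, adjusted p = 0.00384). Its log2 fold change in Upf1-TAP was −0.67 ± 0.38, which did not pass. SUT328, the SUT with most reads in input (8.60% of SUT reads), had 37.9, 51.9 and 85.2 CPM with Upf1, 10.8, 10.7 and 26.6 with Pab1 and 5.12, 10.5 and 14.2 with Rpl16a, against 49.6, 42.3 and 68.2 in input. The Upf1-TAP libraries overlapped input and had the higher mean (58.3 against 53.4 CPM). The Pab1-TAP and Rpl16a-TAP libraries lay below input. The log2 fold changes of SUT328 over input were −1.74 ± 0.54 with Pab1 (adjusted p = 0.0338) and −2.52 ± 0.58 with Rpl16a (adjusted p = 0.0129). With Lsm1 it was at −1.67 ± 0.54 (adjusted p = 0.0327), and in the control at −1.49 ± 0.54, which did not pass (adjusted p = 0.0658). The Pab1 call was lost without Pab1-TAP replicate 1 (−1.51) or 2 (−1.50) or any input replicate (−1.78, −1.89 and −1.53), and the Rpl16a call without Rpl16a-TAP replicate 1 (−2.15) or 2 (−2.67). SUT260 had 1.77, 2.24 and 1.80 CPM in Pab1-TAP, against 7.14, 7.99 and 5.09 in input (−1.83 ± 0.50, adjusted p = 0.0187), and did not pass without Pab1-TAP replicate 1 (−1.75), input replicate 1 (−1.8) or input replicate 2 (−1.69). With scaling by total count SUT260 (−0.15) and SUT328 (−0.08) did not pass in Pab1-TAP, nor did SUT194 with Upf1 (−0.54), Pab1 (−0.99) or Lsm1 (−1.57).

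Other SUTs were named for falls relative to input. SUT037 had 2.08, 2.58 and 1.42 CPM in Rpl16a-TAP, 1.67, 4.81 and 1.52 in Lsm1-TAP and 4.2, 1.21 and 0.913 in the control, against 14.9, 18.8 and 5.09 in input. Its log2 fold changes were −2.60 ± 0.70, −2.32 ± 0.64 and −2.69 ± 0.68 in these 3 groups (adjusted p = 0.0255, 0.0151 and 0.0131), and none passed without input replicate 2 (−2.25, −1.97 and −2.34). The call was lost too for Rpl16a-TAP without its replicate 1 (−2.54) or 2 (−2.80) or input replicate 1 (−2.52), for Lsm1-TAP without its replicate 1 (−2.09) or 3 (−2.04), and for the control without its replicate 2 (−2.41) or 3 (−2.33). SUT412 and SUT073 fell in Lsm1-TAP, by 2.35 each on the log2 scale (SE 0.59 and 0.55, adjusted p = 0.00822 and 0.00559), and neither passed without input replicate 2 (−1.85 and −1.82). Both fell relative to input in the control too (−2.22 and −1.85, adjusted p = 0.0198 and 0.0319). For Lsm1-TAP over the control they were at −0.14 and −0.49, and neither passed. SUT073 had 5.57, 6.6 and 21.0 CPM in Pab1-TAP, against 1.20, 1.38 and 1.10 in the control, a rise by 3.14 ± 0.54 (adjusted p = 0.00187). SUT284 followed it, with 3.54, 4.71 and 8.62 CPM in Pab1-TAP, against 0.801, 0.518 and 1.10 in the control (2.77 ± 0.55, adjusted p = 0.00356). Its value in Rpl16a-TAP relative to input was −2.49 ± 0.65 (adjusted p = 0.0218), and did not pass without Rpl16a-TAP replicate 2 (−2.06), input replicate 1 (−2.70) or input replicate 2 (−2.45). SUT284 fell relative to input in the control too (−1.86 ± 0.60, adjusted p = 0.0406). For Rpl16a-TAP over the control it was at −0.63, which did not pass. SUT217 in Upf1-TAP (−1.31 ± 0.46, adjusted p = 0.031) and SUT241 in Pab1-TAP (−1.60 ± 0.53, adjusted p = 0.0447) changed sign under scaling by total count, to 0.73 and 0.08. With that scaling SUT037 (−1.94 with Rpl16a, −0.86 with Lsm1 and −1.43 in the control), SUT412 (−0.87) and SUT073 (−0.78) with Lsm1 and SUT284 with Rpl16a (−1.68) did not pass. SUT217 and SUT241 were called in 4 of 13 alternatives each.

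Fold changes over input differed with the level of a SUT in input more than those over the control did. The 167 SUTs were divided by mean CPM in input into 56 low, 55 middle and 56 high ones, with median levels of 0.361, 1.44 and 6.99 CPM. Over the control, Upf1-TAP had medians of 1.90, 1.58 and 1.68 on the log2 scale in these bins, with 23, 28 and 37 SUTs higher. Pab1-TAP had medians of 1.63, 1.57 and 0.79 over the control, with 12, 21 and 15 higher, and of 1.48, 0.47 and −0.16 over input, with 12, 10 and 3 higher and 0, 0 and 6 lower. For Upf1-TAP over Pab1-TAP the medians were 0.68, 0.25 and 1.00, with 3, 14 and 20 SUTs higher. Of the SUTs lower in Rpl16a-TAP than in input, 0 were in the low bin, 2 in the middle and 18 in the high one, with medians of −0.44, −0.95 and −1.36, whereas over the control the medians were −0.38, −0.45 and −0.42. The bins use the input libraries, which the fold changes over input share, and a SUT with few reads in input is less likely to pass a test. Divided by the mean of all 18 libraries, the medians of Pab1-TAP over input were 0.54, 0.90 and 0.36 and those of Rpl16a-TAP over input were −0.86, −0.81 and −0.75. Upf1-TAP over Pab1-TAP had medians of 0.50, 0.36 and 1.66 with that division, and 3, 7 and 27 SUTs higher. The mean of all 18 libraries holds the compared libraries, and Upf1-TAP was the highest group for 94 of the 167 SUTs. A SUT high in Upf1-TAP therefore tends towards the high bin, so these values of Upf1-TAP over Pab1-TAP cannot show a trend with abundance.

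**Figure D5:**
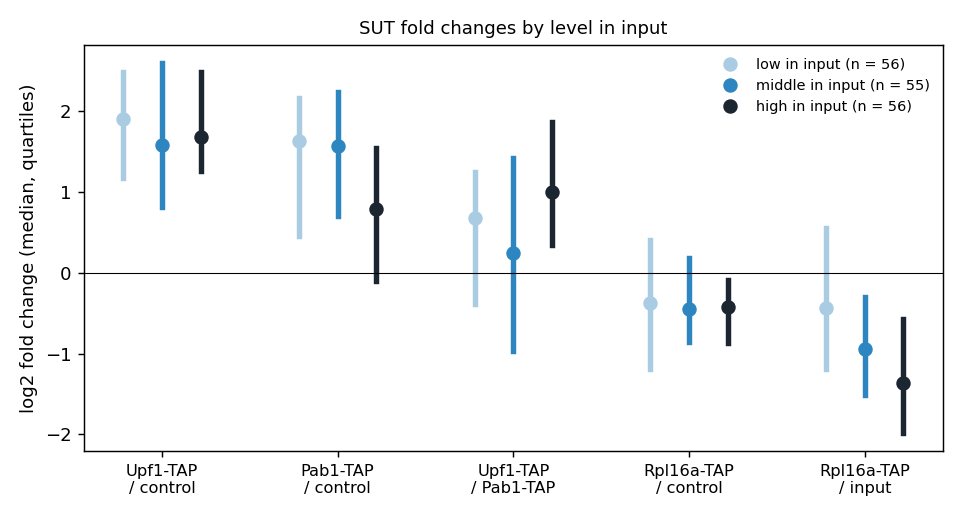
Log2 fold change (vertical axis; points are medians, lines quartiles) of SUTs in 3 bins of mean CPM in input, for 5 comparisons. In Pab1-TAP over the control the median is 1.63, 1.57 and 0.79 from the low to the high bin, and in Rpl16a-TAP over input −0.44, −0.95 and −1.36.

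By mean CPM, Upf1-TAP was the highest of the 6 groups for 94 of the 167 SUTs, Pab1-TAP for 46, input for 14, Lsm1-TAP for 10, Rpl16a-TAP for 2 and the control for 1. Rpl16a-TAP was the lowest group for 92. Upf1-TAP was thus highest for 56.3% of SUTs, against 24.6% of reading frames and 71.1% of XUTs, and Pab1-TAP for 27.5% of SUTs, against 11.4% of reading frames and 11.9% of XUTs. The minimum for a test was reached in Upf1-TAP alone for 134 SUTs, in input for 14 and in Rpl16a-TAP for 1. These shares, and the counts of SUTs past all other libraries, may be set in part by that minimum. All 3 Upf1-TAP libraries lay above the 15 others for 31 SUTs (18.6%, where 7.69% of all features did), among them SUT020, SUT078, SUT103, SUT111, SUT208, SUT307 and SUT341. All 3 Pab1-TAP libraries did so for 10 SUTs (5.99%, against 1.97% of all features), SUT076, SUT100, SUT125, SUT211, SUT214, SUT249, SUT275, SUT293, SUT311 and SUT381. All Rpl16a-TAP libraries lay below the 15 others for 5 SUTs (2.99%, against 1.24% of all features), SUT020, SUT024, SUT239, SUT356 and SUT362. In Rpl16a-TAP replicate 3 these had 5, 0, 1, 0 and 0 reads, where 3 reads stand for 4.27 CPM, so their place there rests on few reads. All input libraries lay above the 15 others for 3 SUTs (1.80%, against 2.26%), SUT194, SUT255 and SUT260. Lsm1-TAP and the control each had 0 SUTs of the opposite kinds, below all others with Lsm1 (0.119% of all features) and above all others in the control (0.445%). The spread between replicates differed by group. The median coefficient of variation of a SUT was 37.8% with Upf1, 43.2% with Pab1, 48.8% with Lsm1, 88.4% with Rpl16a, 54.4% in the control and 65.1% in input, with a median of 197, 108, 45, 18, 19 and 16 reads per SUT over the 3 libraries.

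Lists from comparisons that have no library in common were set beside the shares over all 167 SUTs. Of the 61 SUTs higher in Upf1-TAP than in input and the 48 higher in Pab1-TAP than in the control, 20 were the same, 32.8% of the first list and 41.7% of the second, where 28.7% of all 167 SUTs were in the second list and 36.5% in the first. This overlap is near those shares, and over the 167 SUTs the log2 fold changes of these comparisons had a Pearson correlation of −0.02. Of the 48 higher in Pab1-TAP than in the control, 37 were also higher in Upf1-TAP than in Rpl16a-TAP (77.1% of the 48 and 35.9% of the 103, beside 61.7% and 28.7% of all 167), with a correlation of 0.03. Lsm1-TAP over input and Upf1-TAP over Pab1-TAP had a correlation of 0.42, with 10 SUTs higher in both (66.7% of 15 and 27.0% of 37, beside 22.2% and 8.98% of all 167). Lsm1-TAP over input and Pab1-TAP over the control had one of −0.30, with 1 SUT higher in both (6.67% of 15 and 2.08% of 48, beside 28.7% and 8.98% of all 167). The points share library preparation and SUT abundance, and are no replicates.

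The mRNAs of 24 factors that act on non-coding RNAs (NMD, decapping, deadenylation, Ski complex, exosome and early termination) were all tested. Over the control 2 were higher with Upf1-TAP, 13 lower and 9 did not pass (19.8% and 13.9% of all features were higher and lower). The higher ones were NMD4 and EBS1, whose products bind Upf1. The lower ones included NAM7, the gene of Upf1 itself, UPF3 and DCP1, and NMD2 did not pass. NAM7 carries the tag in the Upf1-TAP strain and not in the control, so its mRNA differs between them. NMD4 had a log2 fold change of 3.04 ± 0.42 (adjusted p = 0.000118) and EBS1 one of 1.09 ± 0.34 (adjusted p = 0.0199). Over input 6 were higher with Upf1-TAP, NMD2, DCP2, EDC3 and LSM1 besides NMD4 and EBS1, and 7 lower (22.2% and 15.9% of all features). NMD2, DCP2 and EDC3 were also higher over input in the mock purification (9 higher and 1 lower) and with Lsm1-TAP (8 and 0). Over input 4 were higher and 0 lower with Rpl16a-TAP, NMD2 and EDC3 among them, and 1 (UPF3) and 6 with Pab1-TAP. With Pab1-TAP 12 were lower over the control, where 8.08% of all features were, and the others did not pass. The lower ones included XRN1, the cytoplasmic 5′ to 3′ exonuclease (−2.10 ± 0.31, adjusted p = 0.000966). The median of the 24 was −1.0 with Upf1-TAP and −1.17 with Pab1-TAP, where that of all features was 0.07 and 0.19. With Rpl16a-TAP the median was 0.13 and with Lsm1-TAP −0.11.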

How the data were processed

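RNA was sequenced from 18 libraries, 3 in each of 6 groups. Per the labels, ribosomal RNA was removed with RiboZero or Ribominus and stranded libraries were made, with no record here of which library had which reagent. Trimming was done by the authors with cutadapt 1.16 and alignment with STAR 2.7, and they deposited raw read counts per feature from featureCounts of Subread 1.6.2, per the submitters' processing notes. The strand and overlap settings used in counting were not given in the sources used here, so reads of a SUT and of a gene overlapping it may not be told apart.

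The 12582 features that reached 10 reads in 3 libraries or more were fitted with R 4.3.3 and edgeR 4.0.16, using TMM scaling, a group-means model over all 18 libraries (12 residual degrees of freedom) and quasi-likelihood tests, adjusted by Benjamini-Hochberg over all 12582 at 0.05. The fit was tested on simulated counts. DESeq2 1.42.0, total-count scaling, no filter, a replicate block and omission of libraries were alternatives. Sequences were read with Biopython 1.88 from the RefSeq R64 genome. SUTs were named by a rule (the 6 with the most reads in input; the largest changes that passed, with a mean of at least 1 CPM and 1 sign in all 3 same-numbered pairs; the 4 largest in each direction for tagged purifications over input and 2 for other comparisons; SUT141), to which SUT053 and SUT418 were added as annotated. SUTs named for lying past all other libraries were chosen after their values were seen. The members and lists were chosen with earlier results of these data known. Counting intervals are exact binomial ones at 95% and cover counting error only.

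The study describes replicated experiments, and no source used here says that equal numbers share one. Deviations of same-numbered libraries from their group means correlated over the kept features at 0.113 to 0.425 between tagged purifications and input and at 0.264 to 0.664 between Upf1-TAP, Pab1-TAP and Rpl16a-TAP, so these were taken as paired. The control was not, as its replicate 2 correlated at −0.277 to −0.158 with the others. The main fit was a group-means model that did not use this pairing, and the fit with the replicate number as a block was an alternative.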

Additional observations from a re-analysis of the deposited data

How the results depend on the processing

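Counts of called SUTs kept within 1.5 times under DESeq2 and without the low-count filter, except that DESeq2 called 4 instead of 1 for Rpl16a-TAP over the control and 4 instead of 0 for Lsm1-TAP over the control. Scaling by total count gave 144 (66 with TMM) for Upf1-TAP over input, 106 (31) with Pab1, 68 (30) with Lsm1, 5 (22) with Rpl16a, 107 (59) for Pab1-TAP over Rpl16a-TAP and 0 (1) for Rpl16a-TAP over the control, where 30 had an unadjusted p below 0.05. The replicate block gave 54 for Pab1-TAP over input, 42 for Rpl16a-TAP over input and 83 for Upf1-TAP over Pab1-TAP. Between groups taken as unpaired it gave 31 (16 without it) for the control over input, 5 (1) for Rpl16a-TAP over the control and 11 (0) for Lsm1-TAP over the control. It moved no other count by over 1.5 times, and none of the 45 single SUT results lost its call under it.

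Omitting single libraries or whole replicate numbers gave 14 to 80 calls for Upf1-TAP over input, 0 to 41 with Pab1, 3 to 42 with Lsm1, 0 to 44 with Rpl16a and 0 to 25 for the control over input. Over the control it gave 3 to 98 with Upf1, 0 to 51 with Pab1, 0 to 4 with Lsm1 and 0 to 2 with Rpl16a. It gave 0 to 73 for Upf1-TAP over Pab1-TAP, 22 to 122 for Upf1-TAP over Rpl16a-TAP and 0 to 63 for Pab1-TAP over Rpl16a-TAP. Omitting replicate 2 of all groups, which leaves 12 libraries, gave the lowest value of each range (alone or tied), and there Pab1-TAP over input still had 31 SUTs at an unadjusted p below 0.05 in edgeR, Pab1-TAP over the control 46, Upf1-TAP over Pab1-TAP 38, Pab1-TAP over Rpl16a-TAP 55, Rpl16a-TAP over input 14 and the control over input 16. Omitting replicate 3 of all groups, among them the libraries with 67.7% and 41.3% ribosomal reads, gave 80 for Upf1-TAP over input, 98 over the control and 47 for Pab1-TAP over the control.

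Of the 45 single SUT results, 42 kept their call with DESeq2 and the other 3, all of SUT211, had no adjusted p there. The call was kept by 42 without the filter and by 29 with scaling by total count, where 14 lost it and SUT217 (0.73) and SUT241 (0.078) changed sign. When 1 library was omitted, 199 kept the call and 71 lost it. When a replicate number was omitted from all groups, 26 of the 45 lost the call without replicate 1, 40 without replicate 2 (3 kept it and the rest gave no value) and 0 without replicate 3. Depth limits what can be said of input and Rpl16a-TAP, with a median of 16 and 18 reads per SUT over 3 libraries. The causes of these shifts were not tested.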

Other observations

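A pair of SUTs outside the rule for naming were singled out after their values were seen. SUT321 had 1.11, 1.33 and 4.27 CPM in Rpl16a-TAP (8, 16 and 3 reads), above all 15 other libraries. It had 0.870, 0.791 and 0.471 CPM in Upf1-TAP, 0.253, 0.224 and 0.18 in Pab1-TAP and 0 in every input library. In replicate 3, 3 reads stand for 4.27 CPM in Rpl16a-TAP and 3.05 CPM in input. SUT321 was the 1 SUT of 167 with all Rpl16a-TAP libraries above the others (0.599%, against 0.938% of all features). SUT198 had 2.74, 2.00 and 2.50 CPM in Lsm1-TAP and 2.00, 1.38 and 1.83 in the control, against 0.931, 1.08 and 1.02 in input.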
